A study of Mus musculus with 12 samples.

Results

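The genes described here encode plasma membrane and lysosomal carriers of amino acids and related small molecules, followed by RNA-seq in mouse bone-marrow-derived macrophages. They were chosen by symbol, as the SLC1, SLC3, SLC6, SLC7, SLC36, SLC38 and SLC43 families without the arginine carriers Slc7a1 and Slc7a2. The deposited table of 48440 genes held 58 such genes. Of these, 27 had a level above 1 CPM (the count over the library total, in parts per 1e6) in at least 2 of the 12 libraries, and all 27 were tested: 2 of 7 in SLC1, 1 of 2 in SLC3, 6 of 18 in SLC6, 7 of 13 in SLC7, 3 of 4 in SLC36, 6 of 11 in SLC38 and 2 of 3 in SLC43. The other 31 were left out, among them all 5 glutamate carriers of SLC1, and 12 of them had no count in any library. A gene that passed this minimum only through the group where it was high had to differ between groups.

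The study grew macrophages from the marrow of mice labelled WT or CKO and left them untreated, or gave them interferon-gamma (IFN-γ, 100 U/mL) or interleukin-4 (IL-4, 20 ng/mL) for 24 h. That makes 6 groups of 2 libraries: untreated WT, WT with IFN-γ, WT with IL-4, untreated CKO, CKO with IFN-γ and CKO with IL-4. The series title names IRF8, a transcription factor of macrophages, and spread of breast cancer, but the labels do not spell out CKO, its allele, a Cre driver, the strain or the age of the mice. Nothing in them ties the 2 libraries of a group to separate mice or cultures, so every p-value measures only how far these libraries spread, and that spread may be technical.

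Cells exchange amino acids with their surroundings through several kinds of carrier. SLC7 light chains reach the surface bound to the heavy chain encoded by Slc3a2, and most of them swap one amino acid for another. SLC1, SLC6 and SLC38 carriers draw on the sodium gradient, and some SLC36 carriers on protons, often at the lysosome. SLC43 carriers let large neutral amino acids pass down their gradient. In macrophages this traffic feeds protein synthesis, glutathione production from imported cystine, and sensing of amino acids by the kinase complex mTORC1. The symbol rule also brings in carriers of other molecules: Slc6a6 carries taurine, Slc6a8 creatine, Slc6a12 betaine and GABA, and Slc43a3 purine bases.

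Totals ran from 21287725 to 32717379 counts per library, so that 3 counts, taken here as the least that can be told from 0, equal 0.141 CPM in the shallowest library. Irf8 was higher in the libraries labelled CKO (146 to 1124 CPM over 6 libraries) than in those labelled WT (65.1 to 502 CPM), against what a loss of that transcript would give, and Lyz2 lay at 11.8 to 29.6 CPM in CKO and 5635 to 12027 CPM in WT. CKO below therefore means the libraries labelled so. Macrophage markers were abundant in all 12 libraries, with a summed level over 11 rows of 10 markers, Itgam having 2, of 8909 to 15139 CPM in WT and 3948 to 4747 CPM in CKO, where Lyz2 is 1 of the 10. Markers of neutrophils (12 genes) summed to 55.8 to 102 CPM in WT and 199 to 427 CPM in CKO, and those of monocytes (6 genes) to 143 to 300 CPM and 232 to 639 CPM. Fibroblast markers summed to at most 0.357 CPM, and Cd3e and Cd3g of T cells were at 0. Untreated CKO library 1 stood apart, with 1.52% of its counts on mitochondrial genes (Wilson 95% bounds 1.51% and 1.52%, counting error only), while the remaining 11 libraries had 2.12% to 3.25%.

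The start regions of some of these genes hold letters that transcription factors of amino acid shortage or cytokine signalling are known to bind, and these stretches are shown because the genes beside them moved in the comparisons that follow. RefSeq promoters of build GRCm38.p6, from 250 bases before to 50 bases after the gene start, were given for 18 of the 27 genes, in 30 windows. The ATF4 element TTGCATCA, searched on both strands, was in 0.895% of all 32851 promoters of that table and in those of 3 genes, Slc1a4, Slc7a7 and Slc7a11. The looser form TGATGNAA, which overlaps it because TGATGCAA is its other strand, was in 3.97% of promoters and in the same 3 genes. The STAT6 element, TTC and GAA with 4 bases of any kind between them, was in 6.95% of promoters and in those of Slc43a2 and Slc6a19. The antioxidant response element TGACNNNGC, bound by NRF2, was in 12.4% of promoters and in those of Slc36a1, Slc38a2, Slc6a9 and Slc7a6. Such matches describe letters and are not sites shown to be bound. In the lines below, capitals mark the match, the strand is minus unless given, and positions count from 0 at the RefSeq start.
Slc7a11, chr3:50443633-50443699, ATF4 letters from −66 and from −47: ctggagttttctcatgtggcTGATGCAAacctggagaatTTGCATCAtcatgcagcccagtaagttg
Slc1a4, chr11:20332700-20332727, ATF4 letters from −4: gcctcctgcgTTGCATCAtctccagcct
Slc7a7, chr14:54417928-54417955, ATF4 letters from −1: acctagaagcTGATGCAAcagcttcccc
Slc43a2, chr11:75531891-75531920, plus strand, STAT6 letters from −211: cgggatccgcTTCTATGGAAacgggctaat
Slc6a19, chr13:73692806-73692855, STAT6 letters from −199: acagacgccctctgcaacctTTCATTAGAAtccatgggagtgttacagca
With IL-4, whose signal STAT6 carries, Slc43a2 was called lower in both genotypes and Slc6a19 was not called. The STAT6 letters were in 2 of the 30 windows, near their share of all promoters, and a link between the letters and these changes was not tested. The stretches of Slc43a2 and Slc1a4 overlap an exon in GENCODE M21, and the RefSeq starts of Slc6a19 and Slc43a2 lie inside the genes as annotated there. The stretch of Slc7a7 lies before the start of the gene as annotated there. Its letters also stand at −243 of another RefSeq start of Slc7a7.

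In untreated WT macrophages, mRNA levels of the 27 genes spread over more than 3 orders of magnitude when counts were set per kilobase of annotated exon (CPM per kb). Slc6a6, the taurine carrier, came highest at 107 CPM per kb as the mean of 2 libraries, followed by the heavy chain gene Slc3a2 at 60.2 and Slc43a2 at 54.1. The ranges of Slc3a2 (55.9 and 64.5 CPM per kb) and Slc43a2 (51.9 and 56.2) overlapped, so their order is not settled. Slc38a10 (39.2) and the light chain gene Slc7a8 (37.1) came next, with the 2 Slc7a8 libraries at 38.2 and 35.9 below both Slc38a10 libraries (38.9 and 39.6) by less than their own spread. Slc6a19, a carrier of neutral amino acids best known from the brush border of gut and kidney, stood near the bottom at 0.13 CPM per kb, above only Slc6a9 (0.11) and Slc6a12 (0.0462). The library kit captures exons with probes, per the labels, and how well each gene was captured was not tested.

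**Figure D1:**
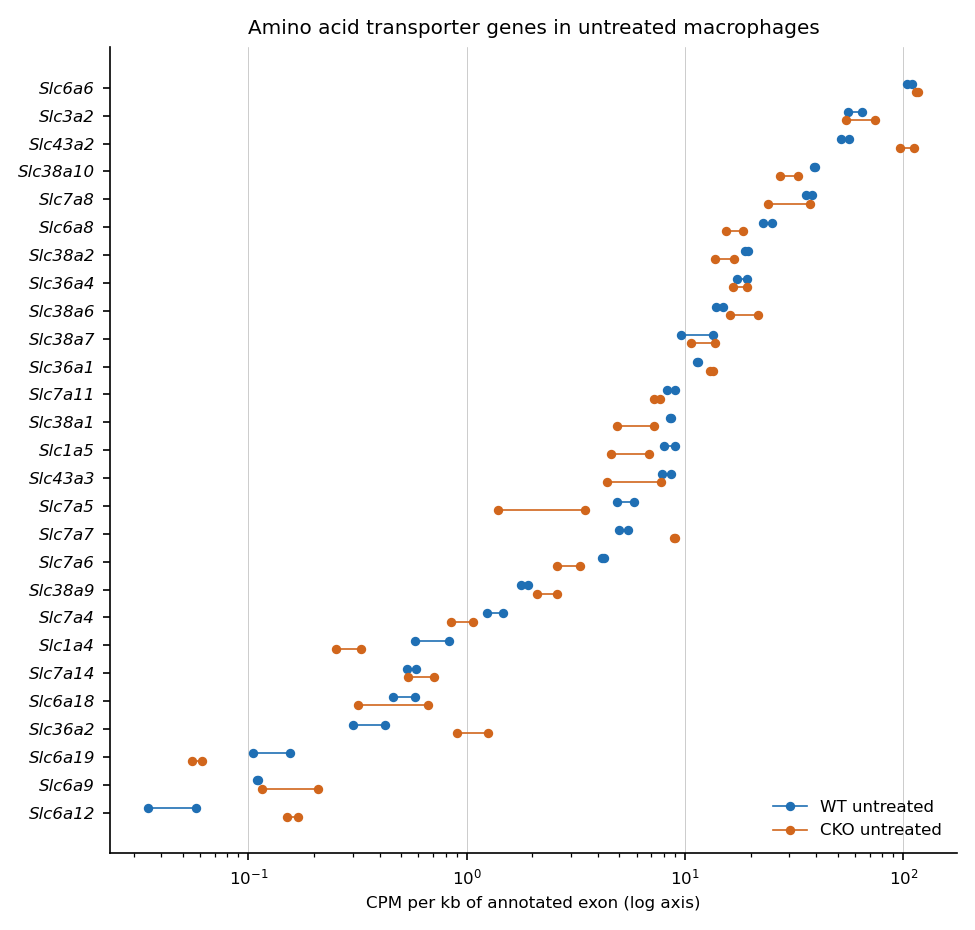
Levels of the 27 genes in untreated macrophages, in CPM per kb of annotated exon on a log axis; each point is 1 library, and a line joins the 2 libraries of WT (blue) or CKO (orange). Slc6a6 is highest in WT with a mean of 107 CPM per kb and Slc6a12 lowest with 0.0462, and the CKO points of Slc43a2, Slc7a7 and Slc36a2 lie to the right of the WT points.

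Across the 7 comparisons of 2 groups, IFN-γ moved the most of these genes. Tests were edgeR's quasi-likelihood F test on all 16292 genes with enough counts, and a gene was called at an adjusted p under 0.05. IFN-γ raised 4 and lowered 8 of the 27 in WT, with 24.2% of all genes tested called in either direction (12.4% higher, 11.8% lower), and raised 5 and lowered 7 in CKO, where 26.6% of all genes were called (14.7% higher, 11.9% lower). IL-4 raised 2 and lowered 2 in WT (12.2% of all genes called; 6.64% higher, 5.59% lower) and raised 3 and lowered 3 in CKO (22.5%; 11.2% higher, 11.3% lower). CKO differed from WT in 8 genes without cytokine, 3 higher and 5 lower (18.0% of all genes called; 8.60% higher, 9.37% lower), in 2 after IFN-γ (18.4%; 10.4% higher, 8.01% lower) and in 3, all higher, after IL-4 (2.96%; 1.41% higher, 1.55% lower). Complete separation of 2 libraries from 2 was common among all genes and says little alone: it held for 23 of the 27 genes for IFN-γ in WT (60.7% of all genes tested), 20 for IFN-γ in CKO (65.3%), 21 for IL-4 in WT (61.9%), 12 for IL-4 in CKO (56.4%), and 21, 17 and 16 for CKO against WT untreated, after IFN-γ and after IL-4 (59.8%, 63.1% and 49.1%). The counts of calls include Slc6a19, which passed the minimum only in IFN-γ libraries, and Slc6a12, which passed it only in IL-4 CKO libraries. A difference between groups in each followed from how it was chosen. In all, 20 of the 27 genes were called at least once, for 47 calls, while 51.6% of all genes tested were called at least once. Of these calls, 20 held in all 12 fits that each left out 1 library, 27 were lost in at least 1 such fit, and none changed direction in these fits. Fits of only the 2 groups compared lost 14 of the 27 (edgeR adjusted p = 0.0527 to 0.168): Slc1a4, Slc38a1, Slc38a10, Slc6a19 and Slc6a8 for CKO against WT untreated, Slc6a12 after IFN-γ, Slc36a2 and Slc43a2 after IL-4, Slc7a7 with IFN-γ in WT, Slc7a8 with IFN-γ in CKO, and Slc1a5, Slc36a2, Slc6a6 and Slc7a5 with IL-4 in CKO. With no filter on low counts Slc38a10 and Slc7a7 with IFN-γ in WT were lost (0.0724 and 0.0727). With a filter at a mean of 5 CPM, Slc43a2 in CKO against WT after IL-4 was lost (0.0576). That filter also removed Slc1a4, Slc36a2, Slc6a9, Slc6a12 and Slc7a4, so their calls were not tested under it.

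**Figure D2:**
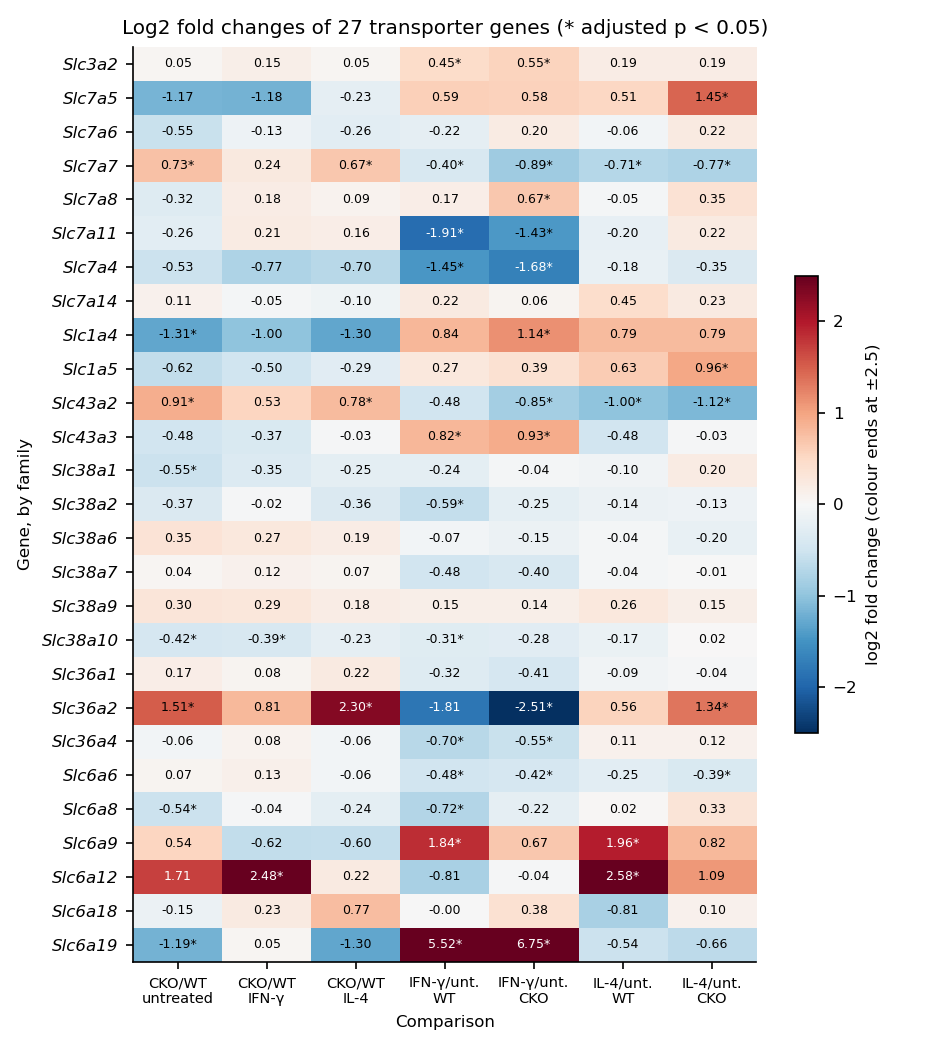
Log2 fold changes of the 27 genes, 1 row per gene by family and 1 column per comparison; red is higher and blue lower in the group named before the slash, the colour ends at ±2.5, and an asterisk marks an edgeR adjusted p under 0.05. The darkest red cells of the IFN-γ columns are Slc6a19 (5.52 in WT and 6.75 in CKO), and Slc7a11 is blue in both (−1.91 and −1.43).

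Among the heteromeric carriers, IFN-γ moved the heavy chain gene and the cystine carrier gene in opposite directions. Slc3a2, whose product carries the light chains to the membrane, was at 197 and 227 CPM in untreated WT, 271 and 282 CPM with IFN-γ, and 240 and 226 CPM with IL-4. In CKO the same groups held 192 and 261 CPM, 295 and 299 CPM, and 245 and 264 CPM. Every IFN-γ library thus lay above every other library of either genotype, with the nearest, IL-4 CKO library 2, at 264 CPM. The rise with IFN-γ was 0.45 ± 0.13 on the log2 scale in WT (± SE; edgeR adjusted p = 0.0215), and in CKO it was 0.55 ± 0.13 (edgeR adjusted p = 0.00663). The WT call was lost without untreated WT library 1 (edgeR adjusted p = 0.172) or IFN-γ WT library 2 (0.0948), and the CKO estimate ran from 0.34 without untreated CKO library 1 to 0.77 without untreated CKO library 2.

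Slc7a11 encodes the light chain that imports cystine in exchange for glutamate and so supplies glutathione synthesis. The gene (ENSMUSG00000027737.10; GRCm38 chromosome 3, 49892526 to 50443614, minus strand) was at 126 and 116 CPM in untreated WT, 28.5 and 32.6 CPM with IFN-γ, and 105 and 97.6 CPM with IL-4. CKO libraries held 107 and 100.2 CPM untreated, 35.1 and 33.4 CPM with IFN-γ, and 139 and 99.98 CPM with IL-4. The 4 IFN-γ libraries were the lowest of the 12 and did not overlap the others. Slc7a11 fell 3.76-fold with IFN-γ in WT (log2 fold change −1.91 ± 0.15, edgeR adjusted p = 1.98e-06). In CKO it fell 2.7-fold (−1.43 ± 0.15, edgeR adjusted p = 2e-05). Both calls held in all 12 fits without 1 library, and the difference between the genotypes (0.48 ± 0.21) did not pass the test (edgeR adjusted p = 0.359). With IL-4 its changes were −0.20 ± 0.15 in WT and 0.22 ± 0.15 in CKO (edgeR adjusted p = 0.456 and 0.299).

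Slc7a8 was the most abundant of the light chain genes. Slc7a8, an exchanger of large and small neutral amino acids, took 53.8% to 77.3% of the summed level of the 5 light chain genes per kb in every library. Slc7a11 took 10.1% to 18.5% of that sum in untreated and IL-4 libraries and 3.18% to 4.78% in IFN-γ libraries, and Slc3a2 exceeded it per kb by 6.19 to 10.4 times and by 33.2 to 37.6 times, respectively. Slc7a8 itself was at 191 and 180 CPM in untreated WT and 235 and 162 CPM with IFN-γ, so that the WT groups overlapped. In CKO it went from 120 and 186 CPM to 220 and 214 CPM, a rise of 0.67 ± 0.22 (log2 scale, edgeR adjusted p = 0.0451) that was lost in 7 of the 12 fits without 1 library: without either untreated WT, IL-4 WT or IFN-γ CKO library, or without untreated CKO library 1, where it was 0.38 (edgeR adjusted p = 0.285). Without untreated CKO library 2 it was 0.995.

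Slc7a7, which exports cationic amino acids in exchange for neutral ones, was lowered by both cytokines in both genotypes. The gene (GRCm38 chromosome 14, 54369442 to 54417780, minus strand) was at 16.5 and 18.2 CPM in untreated WT, 13.1 and 12.1 CPM with IFN-γ, and 10.7 and 9.75 CPM with IL-4. CKO libraries held 29.7 and 29.5 CPM untreated, 14.3 and 14.3 CPM with IFN-γ, and 16.5 and 17.8 CPM with IL-4. No treated group overlapped its untreated group, and the untreated CKO libraries were the highest of the 12. The log2 fold change of Slc7a7 was −0.89 ± 0.11 with IFN-γ in CKO (edgeR adjusted p = 7.36e-05), and with IL-4 it was −0.71 ± 0.11 in WT and −0.77 ± 0.11 in CKO (edgeR adjusted p = 0.00134 and 0.0004). The smaller fall with IFN-γ in WT (−0.40 ± 0.11, edgeR adjusted p = 0.0205) was lost without untreated WT library 1 (0.0522), untreated WT library 2 (0.142) or IFN-γ WT library 2 (0.112). Untreated CKO exceeded untreated WT by 0.73 ± 0.11 (edgeR adjusted p = 0.00141), and CKO with IL-4 exceeded WT with IL-4 by 0.67 ± 0.11 (edgeR adjusted p = 0.00766; 0.139 without IL-4 WT library 2). Slc7a7 shares exon positions with Oxa1l on the other strand, and counting by strand is not stated, so its values are uncertain. Oxa1l, at 28.5 to 39.3 CPM, changed by 0.01 and −0.22 (log2 scale) with IFN-γ in WT and CKO. Its level in CKO exceeded that in WT by 0.32 untreated, 0.10 after IFN-γ and 0.14 after IL-4. Whether its reads add to the values of Slc7a7 was not tested.

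Slc7a5, the exchanger that brings leucine and other large neutral amino acids into cells, was called higher with IL-4 in CKO and in no other comparison. It lies on GRCm38 chromosome 8, 121881150 to 121907694, minus strand (ENSMUSG00000040010.10), and was at 18.1 and 21.7 CPM in untreated WT, 29.7 and 27.2 CPM with IFN-γ, and 24.6 and 30 CPM with IL-4. In CKO the values were 5.14 and 12.9 CPM untreated, 11.4 and 12.8 CPM with IFN-γ, and 16.4 and 32.7 CPM with IL-4. Both IL-4 libraries of CKO lay above its untreated libraries, with wide gaps inside each group. That rise of 1.45 ± 0.38 (log2 scale, edgeR adjusted p = 0.0216) was 0.95 without untreated CKO library 1 (edgeR adjusted p = 0.0915), 0.88 without IL-4 CKO library 2 (0.18) and 2.25 without untreated CKO library 2. The difference between untreated CKO and WT (−1.17 ± 0.38, edgeR adjusted p = 0.0579) and that after IFN-γ (−1.18 ± 0.37, edgeR adjusted p = 0.0526) did not pass the test. Slc7a6, a close relative of Slc7a7, ranged from 11.7 to 19.4 CPM and was called in no comparison.

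**Figure D3:**
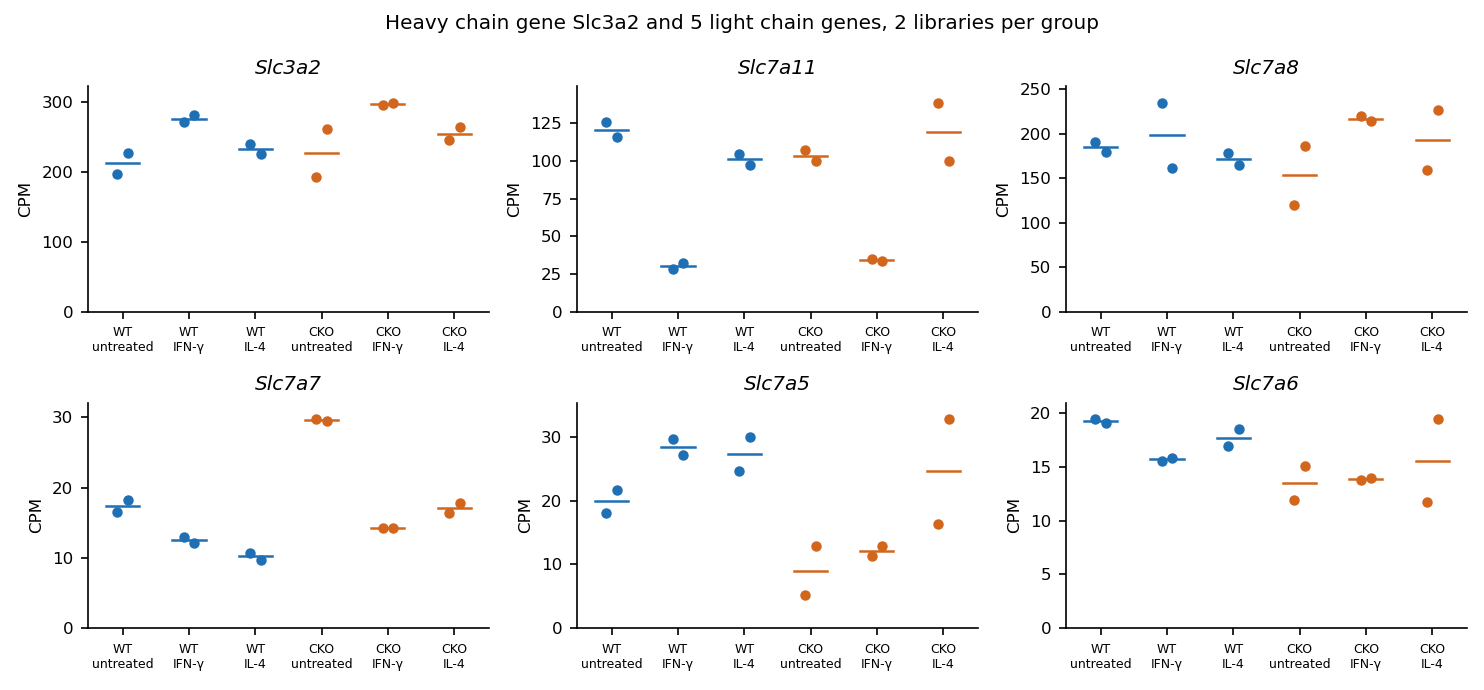
CPM of the heavy chain gene Slc3a2 and the 5 light chain genes in the 6 groups; each point is 1 library, the bar is the group mean, WT is blue and CKO orange, and every axis starts at 0. Slc7a11 drops to 28.5 to 35.1 CPM in the 4 IFN-γ libraries, while Slc3a2 is highest there.

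The branch of SLC7 that needs no heavy chain was represented by Slc7a4 and Slc7a14. Slc7a4 (GRCm38 chromosome 16, 17572018 to 17583214, minus strand), related by sequence to the arginine carriers, was at 6.06 and 5.16 CPM in untreated WT, 1.7 and 2.19 CPM with IFN-γ, and 4.6 and 4.89 CPM with IL-4. In CKO it was at 3.52 and 4.43 CPM, 1.33 and 0.877 CPM, and 3.43 and 2.76 CPM. All 4 IFN-γ libraries lay below the other 8. It fell with IFN-γ, with log2 fold changes of −1.45 ± 0.23 in WT and −1.68 ± 0.25 in CKO (edgeR adjusted p = 0.000609 and 0.000358), and both calls held in all 12 fits without 1 library. It shares exon positions with P2rx6 on the other strand, which had 1 to 10 counts per library. Slc7a14, which encodes a lysosomal protein, stayed between 5.26 and 7.31 CPM and was called nowhere.

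Within SLC6, Slc6a19 gave the largest change of the 27 genes. It passed the minimum of 1 CPM only in its 4 IFN-γ libraries, so that a difference between groups followed from how it was chosen. Slc6a19 (ENSMUSG00000021565.16; GRCm38 chromosome 13, 73679745 to 73704865, minus strand) was at 0.78 and 0.526 CPM in untreated WT, 29.3 and 27.9 CPM with IFN-γ, and 0.47 and 0.402 CPM with IL-4. In CKO it was at 0.277 and 0.306 CPM untreated, 26.7 and 30.3 CPM with IFN-γ, and 0.25 and 0.123 CPM with IL-4. The 4 IFN-γ libraries agreed within 26.7 to 30.3 CPM whatever the genotype, far above the other 8. IFN-γ raised it by 5.52 ± 0.20 on the log2 scale in WT (edgeR adjusted p = 2.19e-09). In CKO the rise was 6.75 ± 0.23 (edgeR adjusted p = 9.71e-10), so that the rises were about 45.7-fold and 107-fold. Among all 16292 genes these were the 116th and the 84th highest log2 fold changes. Both calls held in all 12 fits without 1 library.

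Between genotypes, Slc6a19 was called without cytokine and not after IFN-γ. After IFN-γ the difference between CKO and WT was 0.05 ± 0.14 (log2 scale, edgeR adjusted p = 0.854). Without cytokine CKO lay below WT (−1.19 ± 0.34, edgeR adjusted p = 0.0332), with all 4 libraries under 1 CPM. That call was lost in 5 of 12 fits, without untreated WT library 1 (edgeR adjusted p = 0.273), IL-4 WT library 1 (0.0522), IFN-γ CKO library 1 (0.0526) or either untreated CKO library (0.151 and 0.068). The larger rise in CKO, 1.23 ± 0.36 on the log2 scale, did not pass the test of the difference (edgeR adjusted p = 0.12).

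The neighbour of Slc6a19 that had enough counts for a test was not called. Its neighbour Slc6a18, another carrier of neutral amino acids known from kidney, lies 1721 bp away, and ranged from 1.21 to 2.93 CPM over the 12 libraries. Slc6a18 changed by 0.38 ± 0.31 with IFN-γ in CKO (log2 scale, edgeR adjusted p = 0.408) and by −0.00188 in WT (approximate 95% interval −0.61 to 0.60). The antisense transcript Slc6a19os and Slc6a3 had no count in any library, and Tert had 0 to 7 counts. These neighbours were chosen after their values were seen, and a count of 0 allows a level of up to 0.141 CPM in the shallowest library, counting error only.

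**Figure D4:**
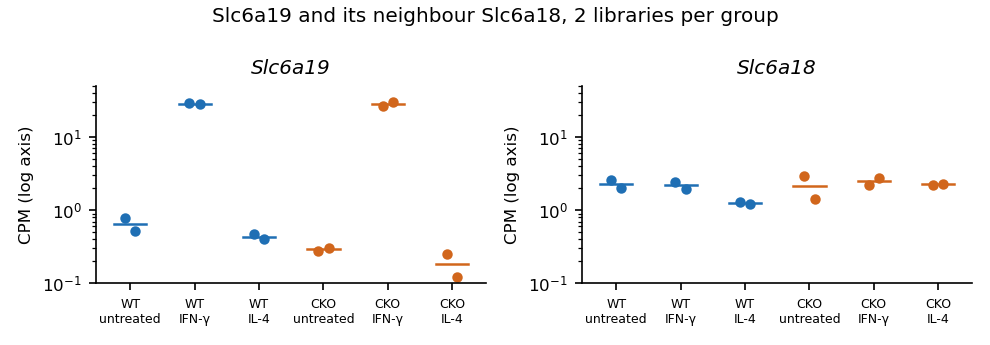
CPM of Slc6a19 and its neighbour Slc6a18 on the same log axis; each point is 1 library, the bar is the group mean, WT is blue and CKO orange. Slc6a19 rises from below 1 CPM to 26.7 to 30.3 CPM in the 4 IFN-γ libraries, while Slc6a18 stays between 1.21 and 2.93 CPM.

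Of the 2 abundant SLC6 genes, Slc6a6 fell with IFN-γ in both genotypes and Slc6a8 in WT. Slc6a6 went from 926 and 882 CPM to 662 and 575 CPM in WT and from 962 and 992 CPM to 659 and 649 CPM in CKO. With IL-4 it was at 731 and 728 CPM in WT and 783 and 691 CPM in CKO. Treated libraries lay below untreated ones throughout. The log2 fold change with IFN-γ was −0.48 ± 0.10 in WT (edgeR adjusted p = 0.00462), held in all 12 fits, and −0.42 ± 0.10 in CKO (edgeR adjusted p = 0.00979), lost without IFN-γ CKO library 1 (0.0512) or 2 (0.0934). With IL-4 the change was −0.39 ± 0.10 in CKO (edgeR adjusted p = 0.0187; 0.16 without IL-4 CKO library 2) and −0.25 ± 0.10 in WT (edgeR adjusted p = 0.147).

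Slc6a8, which imports creatine, was at 130 and 119 CPM in untreated WT and 76.5 and 66.8 CPM with IFN-γ. In CKO it was at 80 and 95.9 CPM untreated and 67.9 and 66.8 CPM with IFN-γ. With IL-4 it was at 122 and 121 CPM in WT and 115 and 102 CPM in CKO. The 4 IFN-γ libraries were the lowest, and the untreated CKO libraries stood between them and untreated WT. IFN-γ lowered it in WT (−0.72 ± 0.11 on the log2 scale, edgeR adjusted p = 0.000524), a call that held in all 12 fits, and its change in CKO was −0.22 ± 0.11 (edgeR adjusted p = 0.18). The difference between these responses (0.50 ± 0.16) did not pass the test (edgeR adjusted p = 0.159). Untreated CKO lay below untreated WT (−0.54 ± 0.11, edgeR adjusted p = 0.00885), a call lost without untreated WT library 1 (0.08) or untreated CKO library 1 (0.0806).

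The remaining SLC6 genes were near the detection limit. Slc6a9, a glycine carrier, was at 0.567 and 0.561 CPM in untreated WT, 1.62 and 2.22 CPM with IFN-γ, and 1.64 and 2.55 CPM with IL-4. It rose by 1.84 ± 0.40 with IFN-γ (log2 scale, edgeR adjusted p = 0.0052) and by 1.96 ± 0.40 with IL-4 (edgeR adjusted p = 0.00734), the latter lost without untreated WT library 1 (0.0573), untreated WT library 2 (0.0583) or IL-4 WT library 2 (0.101). In CKO its libraries spread from 0.593 to 1.93 CPM and neither change was called (0.67 ± 0.39 with IFN-γ and 0.82 ± 0.38 with IL-4). Slc6a12 reached at most 1.03 CPM. It passed the minimum of 1 CPM only in the 2 IL-4 CKO libraries, the group where it was highest, so that a difference between groups followed from its choice. It rose with IL-4 in WT, from 0.106 and 0.175 CPM to 0.705 and 0.938 CPM (2.58 ± 0.53, edgeR adjusted p = 0.00739; 0.0779 without untreated WT library 1 and 0.0825 without IL-4 WT library 2). After IFN-γ it was listed at 0 and 0.139 CPM in WT and at 0.422 and 0.421 CPM in CKO, higher in CKO (edgeR adjusted p = 0.0247) by a call that was lost without IFN-γ WT library 1 (0.0948), IFN-γ CKO library 1 (0.11) or IFN-γ CKO library 2 (0.0881). Without IFN-γ WT library 2 that WT group is at 0, and no fold is given.

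Slc43a2, a carrier of large neutral amino acids such as leucine, was the member with a sizeable genotype difference at a high level. The gene (ENSMUSG00000038178.16; GRCm38 chromosome 11, 75531694 to 75577575, plus strand) was at 565 and 522 CPM in untreated WT, 419 and 324 CPM with IFN-γ, and 260 and 264 CPM with IL-4. In CKO it was at 1125 and 971 CPM, 555 and 483 CPM, and 563 and 387 CPM. Each CKO group lay above the WT group of the same treatment, and each treated group lay below its untreated group. The untreated difference was 0.91 ± 0.18 on the log2 scale (edgeR adjusted p = 0.00677), a 1.88-fold excess in CKO, and was lost without untreated WT library 2 (0.0645) or untreated CKO library 1 (0.0607).

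IL-4 lowered Slc43a2, with log2 fold changes of −0.996 ± 0.18 in WT and −1.12 ± 0.18 in CKO (edgeR adjusted p = 0.0034 and 0.0011), and both calls held in all 12 fits without 1 library. IFN-γ lowered it in CKO (−0.85 ± 0.18, edgeR adjusted p = 0.00387; 0.0517 without IFN-γ CKO library 2), and its change in WT was −0.48 ± 0.18 (edgeR adjusted p = 0.074). After IL-4 Slc43a2 was higher in CKO by 0.78 ± 0.18 (edgeR adjusted p = 0.0385), a call lost in 7 fits, without either library of untreated WT, IL-4 WT or IFN-γ CKO or without IL-4 CKO library 1, where it was 0.47 (edgeR adjusted p = 0.365). Without IL-4 CKO library 2 that difference was 1.05. After IFN-γ the genotype difference in Slc43a2 was 0.53 ± 0.18 (edgeR adjusted p = 0.0572). The gene shares exon positions with Gm45606 on the other strand, a gene without a row in the table, so that its counts may hold reads of it.

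Slc43a3 moved the other way with IFN-γ. It was at 34.9 and 38.6 CPM in untreated WT, 60.2 and 63.4 CPM with IFN-γ, and 23.5 and 27.1 CPM with IL-4. In CKO it was at 19.7 and 34.5 CPM, 44.9 and 47.4 CPM, and 21.6 and 30.8 CPM. The 4 IFN-γ libraries were the highest. The rise was 0.82 ± 0.22 in WT (log2 scale, edgeR adjusted p = 0.0167), lost without any 1 of the 4 WT libraries compared (edgeR adjusted p = 0.0548 to 0.108), and 0.93 ± 0.22 in CKO (edgeR adjusted p = 0.00846), held in all 12 fits with values from 0.58 without untreated CKO library 1 to 1.37 without untreated CKO library 2.

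Of the neutral exchangers of SLC1, Slc1a5 was called higher with IL-4 and Slc1a4 with IFN-γ, both in CKO, and their rises in WT were not called. Slc1a5, which carries glutamine, went from 19.1 and 28.5 CPM in untreated CKO to 36.5 and 55.1 CPM with IL-4, a rise of 0.96 ± 0.21 (log2 scale, edgeR adjusted p = 0.00756; 0.051 without untreated CKO library 1 and 0.0726 without IL-4 CKO library 2). In WT it went from 33.5 and 37.7 CPM to 48 and 58.2 CPM (0.63 ± 0.21, edgeR adjusted p = 0.0737). Its IL-4 libraries lay above the untreated ones in both genotypes. Slc1a4, which carries alanine, serine and cysteine, was at 2.27 and 3.26 CPM in untreated WT and 0.989 and 1.28 CPM in untreated CKO. With IFN-γ it was at 4.54 and 4.86 CPM in WT and 2.42 and 2.1 CPM in CKO. Untreated CKO was the lowest group and WT with IFN-γ stood above both. The untreated genotype difference of −1.31 ± 0.37 in Slc1a4 (edgeR adjusted p = 0.0349) was lost in 5 fits, without either untreated WT or IFN-γ CKO library or untreated CKO library 1 (edgeR adjusted p = 0.0503 to 0.192). Its rise with IFN-γ in CKO, 1.14 ± 0.38 (edgeR adjusted p = 0.0451), was lost in 6, without any 1 of the libraries of untreated CKO, IFN-γ CKO or IFN-γ WT (0.0597 to 0.19).

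Calls among SLC38 genes were small in size. Slc38a2, a glutamine and alanine importer that cells are known to raise when amino acids run short, went from 167 and 171 CPM to 103 and 111 CPM with IFN-γ in WT (−0.59 ± 0.14 on the log2 scale, edgeR adjusted p = 0.00924; 0.0628 without IFN-γ WT library 1). In CKO it went from 122 and 149 CPM to 93.7 and 110 CPM (−0.25 ± 0.14, edgeR adjusted p = 0.234). Its IFN-γ libraries lay below the untreated ones in both genotypes. Slc38a1, a glutamine importer, was at 148 and 146 CPM in untreated WT and 83.8 and 124 CPM in untreated CKO. That difference (−0.55 ± 0.14, edgeR adjusted p = 0.023) was lost without untreated WT library 1 (0.103), untreated WT library 2 (0.0858) or untreated CKO library 1 (0.115), where it was −0.29, and it was −0.82 without untreated CKO library 2.

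Slc38a10 was lower in CKO than in WT, both untreated (175 and 212 against 250 and 254 CPM) and with IFN-γ (139 and 146 against 200 and 187 CPM). These differences, −0.42 ± 0.10 and −0.39 ± 0.10 on the log2 scale (edgeR adjusted p = 0.0146 and 0.0169), were each lost in 3 fits: the former without untreated WT library 1 or 2 or untreated CKO library 1 (0.076 to 0.104), the latter without IFN-γ WT library 1 or either IFN-γ CKO library (0.0848 to 0.116). Its fall with IFN-γ in WT (−0.31 ± 0.10, edgeR adjusted p = 0.0383) was lost in 8 fits, without any WT or IFN-γ CKO library (0.0578 to 0.149). Slc38a9, the lysosomal arginine sensor of mTORC1, ranged from 29.8 to 49 CPM over the 12 libraries, Slc38a7, which releases glutamine from lysosomes, from 27.2 to 57.2 CPM, and Slc38a6 from 90.4 to 169 CPM. None of these last 3 was called.

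Of the SLC36 genes, Slc36a4 fell with IFN-γ in both genotypes. Slc36a4, a carrier of proline and tryptophan, went from 126 and 113 CPM to 71.6 and 68.5 CPM in WT and from 126 and 109 CPM to 72.7 and 70.2 CPM in CKO. With IL-4 it stayed at 121 to 130 CPM over the 4 libraries. The falls with IFN-γ, −0.70 ± 0.11 and −0.55 ± 0.11 on the log2 scale (edgeR adjusted p = 0.000412 and 0.00204), held in all 12 fits. Slc36a1, the lysosomal carrier of small neutral amino acids, ranged from 41 to 79.8 CPM and was not called.

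Slc36a2, a glycine and proline carrier best known from kidney, was low but differed between groups. It was at 1.38 and 0.982 CPM in untreated WT, 0.365 and 0.278 CPM with IFN-γ, and 2.11 and 1.31 CPM with IL-4. In CKO it was at 4.07 and 2.93 CPM, 0.597 and 0.491 CPM, and 12.5 and 5 CPM. Untreated and IL-4 CKO libraries lay above all WT libraries, and IFN-γ libraries were the lowest of each genotype. The fall with IFN-γ in CKO, −2.51 ± 0.51 on the log2 scale (edgeR adjusted p = 0.00332), held in all 12 fits, and the change in WT was −1.81 ± 0.64 (edgeR adjusted p = 0.0629). The excess in CKO after IL-4, 2.299 ± 0.42 (edgeR adjusted p = 0.0142), was 1.48 without IL-4 CKO library 1 (0.077), and it was lost without IL-4 WT library 1 (0.0549) or 2 (0.195) too. The rise with IL-4 in CKO, 1.34 ± 0.38 (edgeR adjusted p = 0.028), was 0.50 without IL-4 CKO library 1 (0.276), and it was lost without either untreated CKO library (0.0715 and 0.119). The untreated excess of CKO, 1.51 ± 0.45 (edgeR adjusted p = 0.0405), was lost in 7 fits, without either library of untreated WT, IFN-γ WT or IFN-γ CKO or without untreated CKO library 1 (0.0591 to 0.226).

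**Figure D5:**
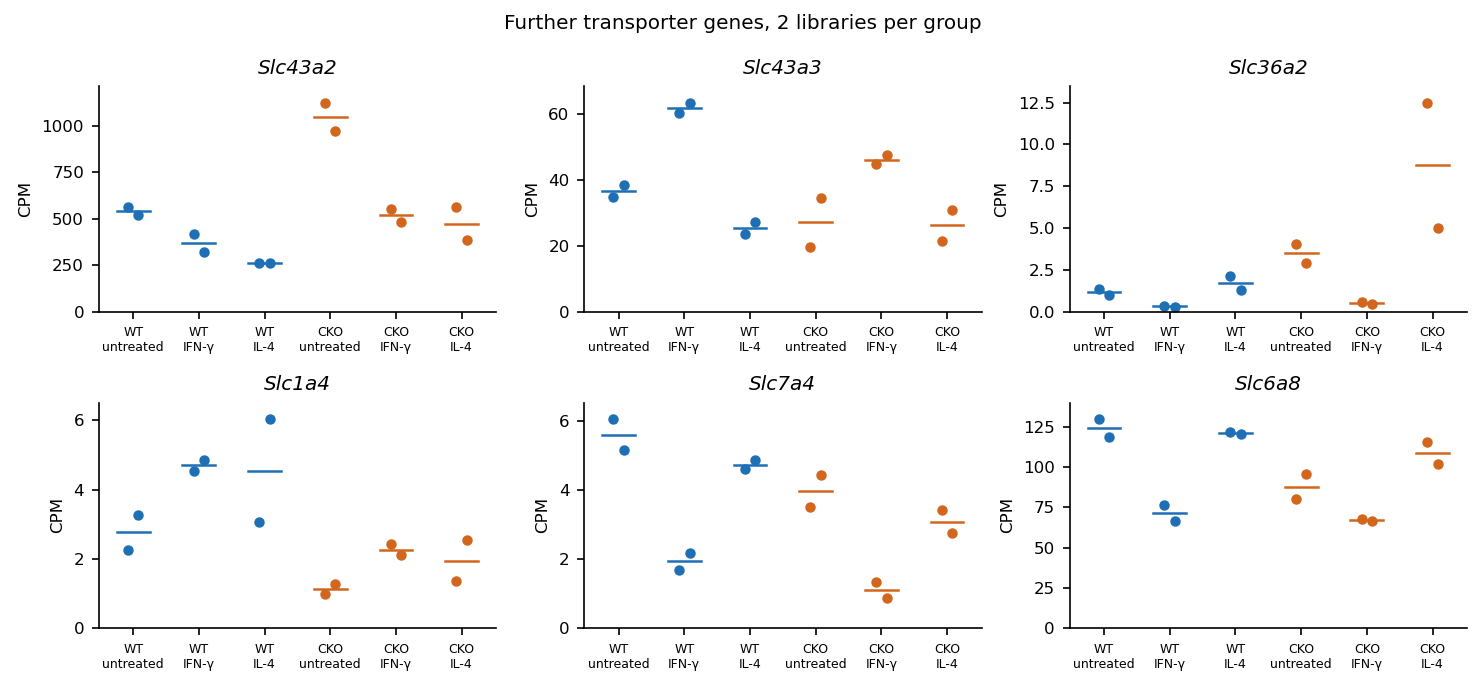
CPM of 6 further genes in the 6 groups; each point is 1 library, the bar is the group mean, WT is blue and CKO orange, and every axis starts at 0. Slc43a2 is highest in untreated CKO at 971 and 1125 CPM, Slc43a3 is highest in the IFN-γ groups, and the 2 IL-4 CKO libraries of Slc36a2 lie far apart at 12.5 and 5 CPM.

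The IFN-γ comparison asks how an activating cytokine changes the carriers. Called higher in both genotypes were 3 of the 27, Slc6a19, Slc43a3 and Slc3a2, with 9.39% of all genes tested. Slc6a19 passed the minimum of 1 CPM only in IFN-γ libraries, so its place in this count followed from how it was chosen. Called lower in both were 5, Slc7a11, Slc7a4, Slc36a4, Slc6a6 and Slc7a7, with 6.91% of all genes. The genotypes have separate controls here. The median log2 fold change of the 27 genes was −0.24 in WT, with −0.00243 over all genes tested, and −0.04 in CKO, with 0.0019 over all genes. Marker sums moved with the treatment as well. Dendritic cell markers (6 genes, none at 0 in all libraries) went from 1.75 to 2.48 CPM up to 49.5 to 57.9 CPM in WT and from 2.02 to 2.93 CPM up to 7.68 to 9.31 CPM in CKO, with 3 and 2 of 5 tested higher. Monocyte markers went from 276 to 300 CPM down to 143 to 185 CPM in WT and from 612 to 639 CPM down to 288 to 294 CPM in CKO, while of the 6 single genes 3 were called higher and 2 lower in WT and 4 higher and 2 lower in CKO. Neutrophil markers went from 60.1 to 70.4 CPM up to 92.6 to 102 CPM in WT and from 206 to 359 CPM up to 416 to 427 CPM in CKO. Their part in the transporter changes was not tested, and in bulk RNA fewer cells of a type and less RNA per cell cannot be told apart.

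The IL-4 comparison asks the same for a cytokine of wound repair and allergy. Of the 27 genes, 2 were called lower in both genotypes, Slc43a2 and Slc7a7 (4.29% of all genes tested), and 0 were called higher in both (5.30% of all genes). The median of the 27 genes was −0.05 in WT (−0.00348 over all genes) and 0.15 in CKO (0.00273 over all genes). Monocyte markers again summed lower, at 145 to 155 CPM in WT and 232 to 284 CPM in CKO with IL-4, and dendritic cell markers higher, at 7.07 to 7.99 and 10.4 to 10.8 CPM. Of 6 single monocyte markers, 2 were called lower in WT and 3 in CKO, and none higher. Of 5 dendritic cell markers tested, 2 were called higher in each genotype, and the list's median log2 fold change was −0.09 in WT and 0.29 in CKO. Whether these cells take part in the fall of Slc43a2 and Slc7a7 was not tested.

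The genotype comparison asks what the CKO label changes at a fixed treatment, and its calls rested most on single libraries. Without cytokine, Slc36a2, Slc43a2 and Slc7a7 were higher and Slc1a4, Slc38a1, Slc38a10, Slc6a19 and Slc6a8 lower in CKO, and of these 8 calls only that of Slc7a7 held in all 12 fits without 1 library. The same 3 genes were higher after IL-4, and after IFN-γ Slc6a12 was higher and Slc38a10 lower. Medians of the 27 genes were −0.15 untreated, 0.08 after IFN-γ and −0.06 after IL-4, against 0.00361, 0.0173 and −0.00981 over all genes. The number of untreated calls was 1 without untreated CKO library 1, the library with the low mitochondrial share, 2 and 3 without untreated WT library 1 and 2, and 14 without untreated CKO library 2. In the untreated comparison 9 of 11 tested neutrophil markers and 6 of 6 monocyte markers were higher in CKO (median log2 fold change 2.40 and 1.54). Their part in the transporter differences was not tested.

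No member passed the test for a different cytokine response in CKO and WT, which does not show that the responses were alike. Neither test of the difference called any of the 27 genes in edgeR as fitted here or in DESeq2 (edgeR with no filter on low counts called 1 for IL-4), while edgeR called 2.72% of all genes for IFN-γ (2.07% higher and 0.651% lower in CKO than in WT) and 0.0368% for IL-4 (0.0246% higher and 0.0123% lower). For IFN-γ the lowest adjusted p was 0.12 (Slc6a19), and 4 members had an unadjusted p under 0.05. For IL-4 the lowest was 0.773, and 0 members had an unadjusted p under 0.05. With 2 libraries per group these intervals are wide, as in the 0.52 to 1.95 (95% interval, log2 scale) for Slc6a19.

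Genes that work beside the carriers were read from lists chosen from textbook knowledge, with earlier results of these data known. The lists share genes, such as Asns, Psat1 and Phgdh in those of the ATF4 response and of amino acid enzymes, so their counts are not separate results. Of 16 tested genes of the ATF4 response, the program that amino acid shortage switches on, IFN-γ raised 12 in WT and 11 in CKO and lowered none, with 12.4% and 14.7% of all genes tested called higher. The list's medians were 0.91 and 0.99, and those of all genes −0.00243 and 0.0019. IL-4 raised 9 in each genotype (6.64% of all genes higher in WT, 11.2% in CKO) and lowered 1 in CKO. Trib3, a pseudokinase induced by ATF4, was at 2.41 and 3.72 CPM in untreated WT and 11.7 and 14.5 CPM with IFN-γ, and at 1.62 and 2.9 CPM and 16.9 and 17.3 CPM in CKO (log2 fold change 2.17 ± 0.24 and 3.06 ± 0.25, edgeR adjusted p = 3.39e-05 and 2.22e-06). Asns, which makes asparagine, rose by 1.03 ± 0.22 and 1.86 ± 0.22 (edgeR adjusted p = 0.00439 and 7.3e-05). Nupr1, a stress-induced chromatin protein, rose by 0.95 ± 0.15 and 1.96 ± 0.14, and more so in CKO (difference 1.02 ± 0.20, edgeR adjusted p = 0.0196). Members with the ATF4 letters printed above did not share a direction: with IFN-γ, Slc7a11 and Slc7a7 fell in both genotypes. Slc1a4 rose in both and was called in CKO only. Promoter windows were missing for 9 members, Slc7a5 and Slc1a5 among them, and a part of ATF4 in the transporter changes was not tested.

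Cystine brought in by Slc7a11 supplies cysteine for glutathione synthesis. Of 17 tested genes of glutathione metabolism and other NRF2 targets, 13 fell and 1 rose with IFN-γ in WT, with a median of −0.71, where 11.8% of all genes fell. In CKO 7 fell and 1 rose, with a median of −0.19, where 11.9% of all genes fell. Gsta3, a glutathione transferase, went from 70.2 and 55 CPM to 4.74 and 3.68 CPM in WT and from 85.5 and 68.7 CPM to 7.17 and 8.31 CPM in CKO (−3.83 ± 0.22 and −3.15 ± 0.21, edgeR adjusted p = 1.29e-07 and 3.78e-07). Gclm, the regulatory subunit of the rate-limiting enzyme of glutathione synthesis, went from 323 and 305 CPM to 134 and 123 CPM in WT and from 481 and 465 CPM to 260 and 271 CPM in CKO. Its log2 fold changes were −1.22 ± 0.09 and −0.67 ± 0.09, and the difference between these (0.54 ± 0.13) passed the test (edgeR adjusted p = 0.0478). Gstm1, another transferase, had log2 fold changes of −1.78 ± 0.14 and −1.61 ± 0.13 (edgeR adjusted p = 1.39e-06 and 2.9e-06). IL-4 lowered 6 of the 17 in each genotype and raised 1 in WT (5.59% of all genes lower in WT, 11.3% in CKO), with Gsta3 at −2.11 ± 0.20 in WT and −1.89 ± 0.19 in CKO.

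Of 28 tested genes of amino acid sensing by mTORC1, IFN-γ raised 3 and lowered 6 in WT and raised 2 and lowered 6 in CKO, and IL-4 raised 2 and lowered 2 in WT and raised 1 and lowered 8 in CKO. The shares of all genes called in either direction were 24.2%, 26.6%, 12.2% and 22.5%. By direction, higher and then lower, they were 12.4% and 11.8%, 14.7% and 11.9%, 6.64% and 5.59%, and 11.2% and 11.3%. Whether the list departs from these shares was not tested. Sesn1, a sestrin of the family that includes leucine sensors, went from 110 and 107 CPM to 31.5 and 36 CPM in WT and from 237 and 180 CPM to 53.5 and 49.7 CPM in CKO (log2 fold change −1.61 ± 0.15 and −1.85 ± 0.15, edgeR adjusted p = 8.77e-06 and 2.35e-06). Rragd, a Rag GTPase that recruits mTORC1 to lysosomes, changed by −1.41 ± 0.18 and −2.05 ± 0.18 with IFN-γ in WT and CKO (edgeR adjusted p = 0.000102 and 5.54e-06). Deptor, an inhibitor within the complex, changed by −2.08 ± 0.20 and −1.59 ± 0.18 (edgeR adjusted p = 8.82e-06 and 4.8e-05). With IL-4 in WT the changes of Sesn1, Rragd and Deptor were −0.21, −0.17 and 0.02 and did not pass the test.

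Among 17 tested amino acid and peptide carriers of other families, IFN-γ raised 4 and lowered 5 in WT (12.4% and 11.8% of all genes) and raised 5 and lowered 3 in CKO (14.7% and 11.9%). Slc15a3, a lysosomal carrier of histidine and small peptides, went from 164 and 150 CPM to 400 and 356 CPM in WT and from 116 and 120 CPM to 551 and 520 CPM in CKO. Its rise of 1.34 ± 0.12 in WT and 2.35 ± 0.12 in CKO differed between the genotypes (1.01 ± 0.16, edgeR adjusted p = 0.00779). Slc16a10, which carries aromatic amino acids, changed with IL-4 by −0.81 ± 0.09 in WT and −0.70 ± 0.09 in CKO (edgeR adjusted p = 7.08e-05 and 0.000167). Slc25a22, a mitochondrial glutamate carrier, rose with IFN-γ by 0.81 ± 0.16 and 1.34 ± 0.17 (edgeR adjusted p = 0.00314 and 8.22e-05).

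Of 35 tested enzymes of amino acid metabolism, IFN-γ raised 12 and lowered 3 in WT (12.4% and 11.8% of all genes) and raised 15 and lowered 4 in CKO (14.7% and 11.9%). IL-4 raised 8 in WT (6.64% of all genes) and raised 14 and lowered 3 in CKO (11.2% and 11.3%). The list's medians were 0.15 and 0.42 with IFN-γ and 0.51 and 0.59 with IL-4, and those of all genes lay between −0.00348 and 0.00273. Ass1, which remakes arginine precursors from citrulline, went from 5.78 and 4.52 CPM to 20.1 and 23.8 CPM with IFN-γ and 31.9 and 33 CPM with IL-4 in WT. In CKO Ass1 went from 2.57 and 3.88 CPM to 31.6 and 30.2 CPM and 32.2 and 33.2 CPM. Both cytokines raised it, by 2.16 ± 0.17 and 2.71 ± 0.17 in WT and 3.41 ± 0.18 and 3.34 ± 0.18 in CKO. Nos2, which makes nitric oxide from arginine, reached 13.3 and 10.6 CPM in WT and 4.39 and 4.59 CPM in CKO with IFN-γ, and was at or below 0.0709 CPM in the other 8 libraries, under the level that 3 counts give. Glul, which makes glutamine from glutamate, changed with IFN-γ by −1.54 ± 0.11 in WT and −1.63 ± 0.11 in CKO (edgeR adjusted p = 9.2e-07 and 4.62e-07) and was higher in untreated CKO than in untreated WT (1.15 ± 0.11, edgeR adjusted p = 7.7e-05).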

How the data were processed

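The values are raw counts per gene in 12 libraries, whole numbers as the authors deposited them. Per the submitters' processing notes, the tools named are HTSeq 0.6.1, TopHat2 2.0.13, CASAVA 1.8.2 and Picard 1.97, listed without order, and the builds named are mm10 and GRCh38, whose roles are unstated. The annotation release and strand setting: not given in the sources used here. Libraries were grouped by genotype and treatment in the labels. Counts of all genes were fitted with edgeR 4.0.16 (R 4.3.3; filterByExpr, TMM, robust quasi-likelihood, 6 group means, 6 residual degrees of freedom), with Benjamini-Hochberg adjustment over the 16292 genes tested in each of 9 comparisons. The approximate SE divides the size of the log2 fold change by the root of F. Intervals called 95% are the estimate ± 1.96 SE, a normal multiplier that makes them narrower than the F test would. CPM uses the library total. Exon lengths and positions are from GENCODE M21 (GRCm38), and 16 of the 27 identifiers matched its versions exactly. Of the 27 genes, 7 share exon positions with a gene on the other strand and are uncertain: Slc38a10, Slc38a9, Slc43a2, Slc6a6, Slc6a9, Slc7a4 and Slc7a7. Members were given in full where a call had a log2 fold change of at least 1 and a CPM of at least 5 in at least 2 libraries (Slc43a2, Slc6a19, Slc7a11, Slc7a4, Slc7a5), the others more briefly, and up to 3 genes of each context list with the smallest adjusted p were named. The members and lists were chosen with earlier results of these data known. Replicates of a group differed by more than counting noise, with a chi-square per gene of 5.03 to 90.8. Alternatives were DESeq2 1.42.0, its size factors in edgeR, other filters, only the compared groups, the library number as a block, and leaving out each library. The count steps were tested on simulated data. Some items looked at are not reported here.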

Additional observations from a re-analysis of the deposited data

How the results depend on the processing

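The number of members called per comparison depended on the fit more for genotype than for IFN-γ. Over the 12 fits without 1 library it ran from 8 to 14 for IFN-γ in WT and in CKO (12 each), from 1 to 14 for untreated CKO against WT (8), from 0 to 6 after IFN-γ (2), from 0 to 5 after IL-4 (3), from 2 to 7 for IL-4 in WT (4), from 3 to 9 for IL-4 in CKO (6), and from 0 to 1 for the genotype difference in the IL-4 response (0). Where a fit left a group 1 library, that library was assumed to vary like the other groups. Untreated CKO against WT gave 15 calls with no filter on low counts and 3 with only the compared groups. CKO against WT after IFN-γ gave 5 by DESeq2 and 7 with no filter or with only the compared groups, and after IL-4 it gave 1 with a filter at a mean CPM of 5 or with only the compared groups. IL-4 in WT gave 9 with no filter, 2 with the stricter filter and 11 with only the compared groups, IL-4 in CKO gave 10 with no filter and 2 with only the compared groups, and the IL-4 difference between genotypes gave 1 with no filter. With the stricter filter, Slc6a9 and Slc6a12, called with IL-4 in WT, were no longer in the fit. The same holds for Slc36a2, called in CKO against WT after IL-4. Other causes were not tested. DESeq2 size factors left every count within 1.5 times its value. The library number as a replicate block gave 15, 6 and 5 calls in the genotype comparisons (untreated, IFN-γ, IL-4); as a block within genotype it gave 16, 8 and 5 there and 8 for IL-4 in WT. The block also ended the call of Slc7a8 with IFN-γ in CKO (edgeR adjusted p = 0.0567). Deviations of same-numbered libraries correlated by 0.10 to 0.43 within genotype and by −0.01 to 0.26 between genotypes, ranges that overlap, and with 2 numbers per group this does not show that the numbers pair the libraries. A minimum of 0.5 CPM would give 30 members and 5 CPM would give 22. Members with groups near or under 1 CPM, such as Slc6a12, Slc6a9, Slc36a2 and Slc6a19, rest on few counts there.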
